A study of Mus musculus with 104 samples.

Results

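The endoplasmic reticulum chaperones described here are 10 genes, Hspa5, Hsp90b1, Pdia4, Pdia6, Sdf2l1, Manf, Creld2, Hyou1, Dnajb11 and Calr, taken by name from the 24060 genes of the RefSeq count table. All 10 were in the table, and all 10 were among the 15723 genes that passed the filter on low counts. They were followed across RNA-seq libraries of cerebral cortex, 1 per mouse, from 52 female and 52 male C57BL/6 mice that were wild type and 6 months old. The mice came in 13 lines of 8, with 4 females and 4 males each. Lines carry the names of genes: Rasgef1a, Ppp1ca, Gsg1l, Kdm3b, Tbc1d8, Dach1 and Hrk, and also Arpp19, Ece2, Morf4l1, Pcdh20, Rgs9 and Zswim6. Since the label of each mouse says wild type, a line is a group of control mice with no listed mutation or treatment. The labels tag the line as a batch, so line and batch cannot be told apart, and they do not say which mice are related.

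Libraries held 3.39 to 33.5 M reads over genes, with medians of 28.2 M in females and 28.8 M in males. Kdm3b female replicate 22 was the library with 3.39 M, and the next lowest held 23.9 M. Reads of Xist and of the Y genes went against the sex label in 3 libraries. Rasgef1a male replicate 40 had 32425 Xist reads and 0 Y gene reads, and Rgs9 female replicate 43 had 3 and 4479. Rasgef1a female replicate 39 had 2 and 0, so its reads matched neither sex. All 3 were analysed as labelled. Excitatory neuron markers summed to between 11994 and 13751 counts per M reads (CPM), and striatal projection neuron markers to between 248 and 360 CPM, over all libraries. All pairs of libraries differed by more than sampling noise: the lowest chi-square per degree of freedom over 5356 pairs was 2.01.

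Proteins that are secreted or placed in membranes fold in the endoplasmic reticulum, where chaperones hold them, form their disulfide bonds and read their sugar chains. When unfolded protein builds up there, the sensors Ire1, Perk and Atf6 start the unfolded protein response, and the transcription factors Xbp1 and Atf6 raise chaperone genes through the endoplasmic reticulum stress element (ERSE), in which NF-Y binds a CCAAT box and Atf6 a CCACG box. Neurons make large amounts of membrane and secreted protein, and the cortex expresses these genes without any imposed stress. By role, Hspa5 encodes BiP, the central chaperone and the brake on the sensors. Hyou1 exchanges its nucleotide, while Dnajb11 and Sdf2l1 work with it as co-chaperones. Hsp90b1 is the Hsp90 protein of the compartment, Calr is a calcium-binding lectin chaperone, Pdia4 and Pdia6 are disulfide isomerases, Manf is a secreted neurotrophic factor and BiP partner, and Creld2 is a stress-inducible protein with disulfide isomerase activity.

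The promoters are shown because the 10 genes moved together in these data and most windows found hold a motif known from this response. RefSeq promoter windows of 300 bases (250 before to 50 after the start, GRCm38.p6) were found for 8 of the 10 genes, all but Manf and Hyou1. The ERSE was searched as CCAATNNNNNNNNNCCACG on both strands. It was found in 5 of 8 windows, against 39 of all 32851 windows (0.119%). The element is already known from chaperone genes of this response, so this share describes the windows and is not an independent finding. The shorter ERSE-II, ATTGG and CCACG with 1 base between them, was found in 1 of 8, against 12 of 32851 (0.0365%). Related lists held these motifs too. For other folding factors of the endoplasmic reticulum, the ERSE was in 2 of 18 windows (Canx and Dnajc3) and the ERSE-II in 0. For its degradation genes, they were in 2 of 12 (Syvn1 and Derl3) and 1 of 12 (Herpud1). Cytosolic heat shock genes had 0 of 15 for each. Both motifs hold a CCAAT or its complement and a CCACG. Those 5-letter boxes alone were in 8 of 8 windows each, against 37.4% of all windows for CCAAT and 32.8% for CCACG. They are not particular to the chaperones. Of 12 windows of genes for degradation from the endoplasmic reticulum, 9 held CCAAT and 11 held CCACG. Of 15 cytosolic heat shock windows, 7 and 6 did. Below, the 250 bases before the start are given 5′ to 3′ on the gene's strand for the 5 genes with an ERSE, with the motif in capitals. The capitals of Creld2 and Calr, and the second run of Hsp90b1, hold the motif on the opposite strand. The regions are chr2:34771840-34772089 (plus strand, Hspa5), chr10:86705445-86705694 (minus strand, Hsp90b1), chr12:17266339-17266588 (plus strand, Pdia6), chr15:88819396-88819645 (plus strand, Creld2) and chr8:84846932-84847181 (minus strand, Calr). The Dnajb11 line shows 30 bases around its ERSE-II, which lies 8 to 18 bases into the transcript, at chr16:22857842-22857871 (plus strand).
Hspa5: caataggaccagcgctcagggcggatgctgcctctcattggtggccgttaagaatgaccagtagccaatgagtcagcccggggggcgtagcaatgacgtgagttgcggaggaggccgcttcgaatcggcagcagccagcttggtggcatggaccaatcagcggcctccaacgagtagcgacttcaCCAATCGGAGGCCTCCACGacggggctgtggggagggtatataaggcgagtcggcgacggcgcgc
Hsp90b1: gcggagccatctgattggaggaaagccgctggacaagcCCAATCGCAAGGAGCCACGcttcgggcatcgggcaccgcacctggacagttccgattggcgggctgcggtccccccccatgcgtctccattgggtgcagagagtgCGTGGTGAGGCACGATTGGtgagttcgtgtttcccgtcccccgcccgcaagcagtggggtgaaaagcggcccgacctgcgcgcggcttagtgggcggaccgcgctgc
Pdia6: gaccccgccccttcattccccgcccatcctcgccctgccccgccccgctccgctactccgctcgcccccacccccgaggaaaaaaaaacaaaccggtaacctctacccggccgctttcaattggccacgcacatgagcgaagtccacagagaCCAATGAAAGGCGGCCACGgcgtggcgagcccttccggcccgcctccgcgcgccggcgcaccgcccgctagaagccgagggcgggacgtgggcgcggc
Creld2: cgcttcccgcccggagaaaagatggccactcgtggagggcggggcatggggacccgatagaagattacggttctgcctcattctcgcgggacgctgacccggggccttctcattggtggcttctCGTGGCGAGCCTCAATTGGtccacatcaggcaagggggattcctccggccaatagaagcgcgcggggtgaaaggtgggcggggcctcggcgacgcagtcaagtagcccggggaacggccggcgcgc
Calr: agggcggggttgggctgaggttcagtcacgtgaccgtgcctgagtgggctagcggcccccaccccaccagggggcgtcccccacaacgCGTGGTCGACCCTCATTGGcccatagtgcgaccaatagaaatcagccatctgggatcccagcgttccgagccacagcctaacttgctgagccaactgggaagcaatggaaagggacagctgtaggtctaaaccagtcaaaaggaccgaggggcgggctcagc
Dnajb11: cccggcggcgATTGGCCCACGcctggctgc

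The ERSE lay 47 to 65 bases before the start in Hspa5, 80 to 98 in Pdia6, 108 to 126 in Creld2 and 144 to 162 in Calr. Hsp90b1 held one at 89 to 107 and another at 194 to 212. Neither motif was in the windows of Pdia4 and Sdf2l1, which says only that these letters are not in these 300 bases. A match is a description of the sequence, and binding was not measured.

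The genes lie on 8 chromosomes in the GENCODE vM21 annotation of GRCm38, with Manf and Hyou1 on chromosome 9 and Sdf2l1 and Dnajb11 on chromosome 16. Manf and Hyou1 are not neighbours (chr9:106838312-106891979 on the minus strand and chr9:44379490-44392369 on the plus strand), nor are Sdf2l1 (chr16:17130138-17132383, minus strand) and Dnajb11 (chr16:22857845-22879634, plus strand). Annotated genes on the opposite strand overlap Hsp90b1, Pdia6, Manf and Dnajb11. The kit was stranded, but whether the counting used strand is not given in the sources used here. Reads of these 4 genes and of their antisense neighbours may therefore be mixed. On the same strand, Gm15344 and Gm25745 overlap Hsp90b1, Mir704 overlaps Pdia4 and the protein-coding Rbm15b overlaps Manf, which strand cannot separate.

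Per length, the lectin chaperone Calr was the most abundant of the 10, with a lowest, median and highest value of 114, 140 and 221 fragments per kilobase per M fragments (FPKM) over all libraries. Hsp90b1 followed at 95.7, 109 and 162 FPKM and Hspa5 at 55.7, 73.0 and 153 FPKM. Pdia6 (median 36.2 FPKM) and Hyou1 (24.8 FPKM) were in the middle. Manf (13.9), Dnajb11 (13.02), Pdia4 (12.4), Creld2 (8.92) and Sdf2l1 (6.18 FPKM) were the lowest. The ranges of all neighbours in this order overlapped. Within a library, Calr exceeded Hsp90b1 in every library, while Manf exceeded Dnajb11 in 95 libraries and Dnajb11 exceeded Pdia4 in only 66. Read support differed as well: Hsp90b1 had a median of 8710 reads per library, while Sdf2l1 had 196 and only 14 in Kdm3b female replicate 22.

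Levels within a gene are given from here in CPM, scaled between libraries by the trimmed mean of M values. Hspa5 ran from 146 CPM in Ppp1ca male replicate 36, with a median of 191 CPM, to 406 CPM in Rasgef1a male replicate 37, a 2.79-fold range. The co-chaperone Sdf2l1 had the widest range, 4.33-fold (3.88, 6.80 and 16.8 CPM for lowest, median and highest). Pdia4 spanned 2.91-fold (21.98, 30.7 and 63.9 CPM) and Creld2 2.52-fold (8.37, 12.2 and 21.05 CPM). Spans near 2-fold were found for Manf (25.8, 30.8 and 52.9 CPM), Pdia6 (63.1, 77.1 and 127 CPM) and Calr (224, 272 and 435 CPM). Dnajb11 (34.6, 42.1 and 64.8 CPM), Hyou1 (97.5, 110 and 169 CPM) and Hsp90b1 (265, 301 and 453 CPM) had the narrowest ranges, 1.71- to 1.87-fold.

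The standard deviation of log2 CPM over all libraries was 0.41 for Sdf2l1, 0.32 for Hspa5 and 0.31 for Pdia4, with 99.3%, 98.1% and 97.6% of the 12826 genes averaging 1 or more on that scale showing a smaller one. Hsp90b1 had the lowest of the 10 at 0.15, still above 72.4% of genes, and the median gene stood at 0.10. Fitted line and sex means took up 12.3% (Hsp90b1) to 22.8% (Sdf2l1) of the variance of these genes. This share is not adjusted for the number of fitted terms, which take up part of the variance even without any effect. Most of the spread therefore lay between mice of the same line and sex.

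**Figure D1:**
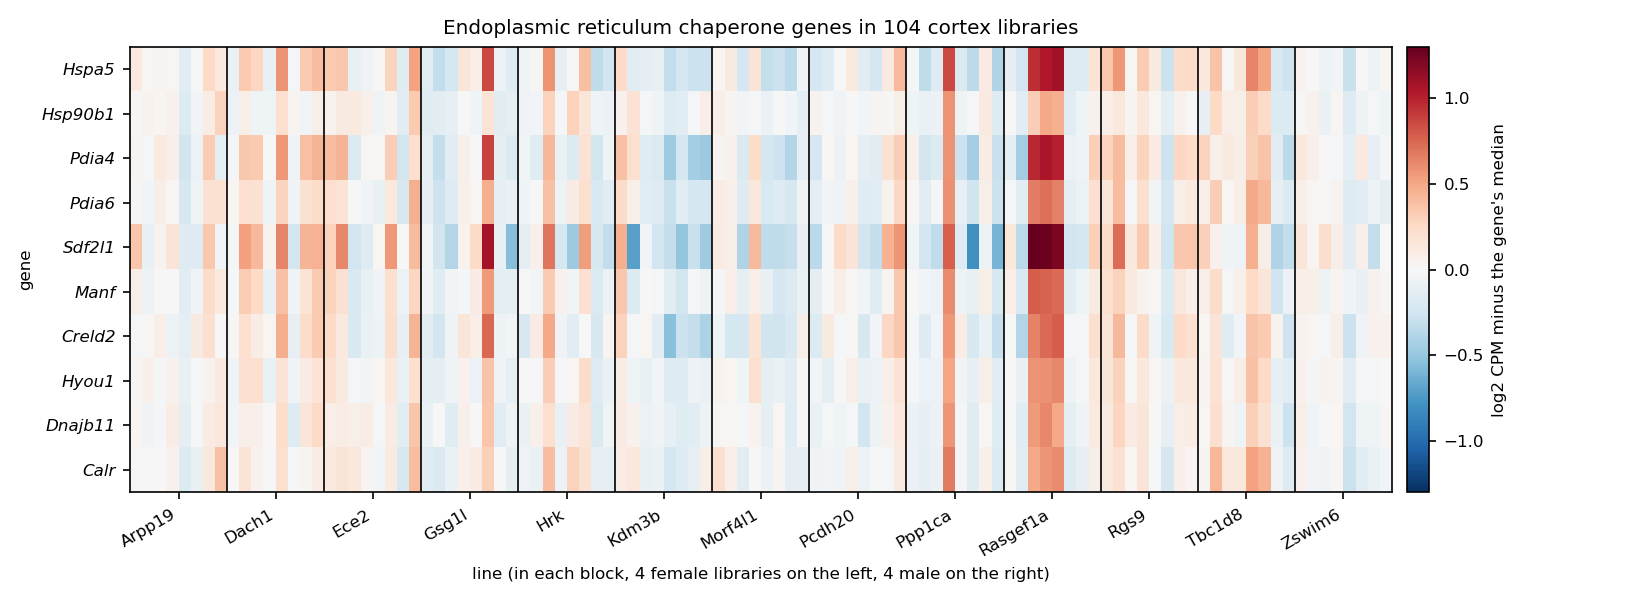
Colour shows log2 CPM minus the gene's median for the 10 genes (vertical) in all libraries (horizontal), grouped by line with the 4 females left of the 4 males. Whole columns are red or blue together, and the darkest red columns are 3 Rasgef1a libraries, Ppp1ca female replicate 36 and Gsg1l male replicate 14.

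High values came in a few libraries and in nearly all of the genes at once. The summed level of the 10 genes had a lowest, median and highest value of 917, 1081 and 1738 CPM. The 5 libraries with the highest mean deviation were Rasgef1a female replicate 40 (1731 CPM in sum), Rasgef1a male replicate 37 (1738), Rasgef1a female replicate 39 (1632), Ppp1ca female replicate 36 (1694) and Gsg1l male replicate 14 (1465 CPM). They were among the 5 highest libraries for 10, 10, 9, 10 and 5 of the 10 genes, in that order. The next in mean deviation were Hrk female replicate 19 (1410 CPM), among the 5 highest for 0 genes and the 10 highest for 9, and Tbc1d8 male replicate 45. Its sum, 1466 CPM, was level with that of Gsg1l male replicate 14, and this Tbc1d8 library was among the 5 highest for 4 genes. Ece2 male replicate 12 (1400.0 CPM) was among them for 2, so the 5 shade into the next libraries.

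Hspa5 had 392 CPM in Rasgef1a female replicate 40, 406 in Rasgef1a male replicate 37, 373 in Rasgef1a female replicate 39, 347 in Ppp1ca female replicate 36 and 348 CPM in Gsg1l male replicate 14, against a median of 191 CPM. Every other library had 296 CPM or less. The order differed between genes. Hsp90b1 and Calr were highest in Ppp1ca female replicate 36, at 453 and 435 CPM, where Pdia4 (46 CPM) and Sdf2l1 (11.7 CPM) were below their values in the other 4 libraries. Gsg1l male replicate 14 had Pdia4 at 56.3 CPM and Creld2 at 20.6 CPM but Hsp90b1 at 340 CPM and Calr at 338 CPM.

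At the low end, Kdm3b male replicate 21 had the lowest sum, 917 CPM, with Hspa5 at 153 CPM and Creld2 at 8.37 CPM. It was followed in mean deviation by Ppp1ca male replicates 36 and 34 (920 and 960 CPM in sum) and by Rasgef1a female replicate 38 (954 CPM). All 10 genes were below their medians in each of these 4 libraries. The Ppp1ca and Rasgef1a lines therefore held libraries at both ends.

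The 5 highest libraries held 27.3 to 32.6 M reads and were all on plate 1. Among them, 1 was Rasgef1a female replicate 39, whose Xist and Y gene reads matched neither sex. Choroid plexus markers summed to 726 CPM in Rasgef1a male replicate 37, the highest of all libraries against a median of 281 CPM, with Ttr, a choroid plexus transcript, at 286 CPM. In Rasgef1a female replicates 39 and 40 the same 9 markers summed to 262 and 268 CPM, with Ttr at 0.264 and 0.214 CPM, and Hspa5 was at 373 and 392 CPM. Oligodendrocyte markers had their highest sum, 2797 CPM against a median of 2275 CPM, in Rasgef1a female replicate 39. Striatal projection neuron markers summed to 338 CPM in Rasgef1a female replicate 40, 346 in Rasgef1a male replicate 37 and 320 in Rasgef1a female replicate 39. They summed to 307 CPM in Ppp1ca female replicate 36 and 292 CPM in Gsg1l male replicate 14, against a median of 279 CPM. Their highest sum, 360 CPM, was in Hrk male replicate 18. The part of these markers in the chaperone levels was not tested. In bulk tissue, more RNA per cell and more cells of a type cannot be told apart.

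The 10 genes varied together from mouse to mouse. For this, log2 CPM was set against the mean of its line and sex, and the slope of each gene on Hspa5 was fitted over all 15722 other genes with line and sex in the model. All 9 other genes had a positive slope that passed edgeR's quasi-likelihood test after Benjamini-Hochberg adjustment, while 22.3% of all genes tested did so and 24.8% had a negative one, 47.1% in all. Slopes are in log2 units of the gene per log2 unit of Hspa5. Since so many genes moved with Hspa5, the size of the slope carries more than the call: the median slope over all genes was -0.006 and that over the 9 genes was 0.62.

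Sdf2l1 had the steepest slope, 1.15 ± 0.05 (SE), so that it changed more than Hspa5 itself (adjusted p = 1.82e-37, edgeR's quasi-likelihood test after Benjamini-Hochberg adjustment, n = 52 females and 52 males). The disulfide isomerases followed at 0.87 ± 0.03 for Pdia4 and 0.66 ± 0.02 for Pdia6. Creld2 was at 0.70 ± 0.04 and Manf at 0.62 ± 0.02. The lectin chaperone Calr was at 0.53 ± 0.03, the nucleotide exchange factor Hyou1 at 0.49 ± 0.01 and the co-chaperone Dnajb11 at 0.48 ± 0.02. Hsp90b1 was the flattest at 0.40 ± 0.03 (adjusted p = 1.3e-22, same test). On these slopes, 2-fold higher Hspa5 corresponds to 2.22-fold higher Sdf2l1 and 1.32-fold higher Hsp90b1.

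The tightest relation to Hspa5 was not the steepest. Over deviations from line and sex, Hyou1 had a Pearson r of 0.97 with Hspa5 (Spearman rho 0.95) and Pdia6 one of 0.96 (rho 0.95). Manf was at 0.93 (rho 0.89), Pdia4 at 0.93 (0.89), Dnajb11 at 0.91 (0.85), Sdf2l1 at 0.91 (0.86), Creld2 at 0.89 (0.84), Calr at 0.87 (0.83) and Hsp90b1 at 0.82 (0.74). Each of these 9 relations had a two-sided permutation p of 1e-05 for r and for rho, the smallest that 100000 draws within line and sex can give. Without the 2 libraries whose Hspa5 deviation from line and sex lay farthest from the median, Ppp1ca female replicate 36 and Gsg1l male replicate 14, r was 0.78 (Hsp90b1) to 0.96 (Hyou1 and Pdia6).

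The relation did not rest on the high libraries alone. Without the 5 highest libraries, r over the other 99 was 0.69 for Hsp90b1, 0.78 for Calr and between 0.82 and 0.94 for the other 7 genes, each with a permutation p of 1e-05. Within plate 1 (96 libraries) r was 0.82 (Hsp90b1) to 0.97, and plate 2 held 8 libraries from 6 lines, too few for a value within line and sex. Taken line by line over 8 libraries each, r was positive in 13 of 13 lines for all 9 genes. The weakest was 0.17, for Hsp90b1 in Morf4l1, and the median over lines was 0.76 for Hsp90b1 and 0.97 for Pdia6.

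**Figure D2:**
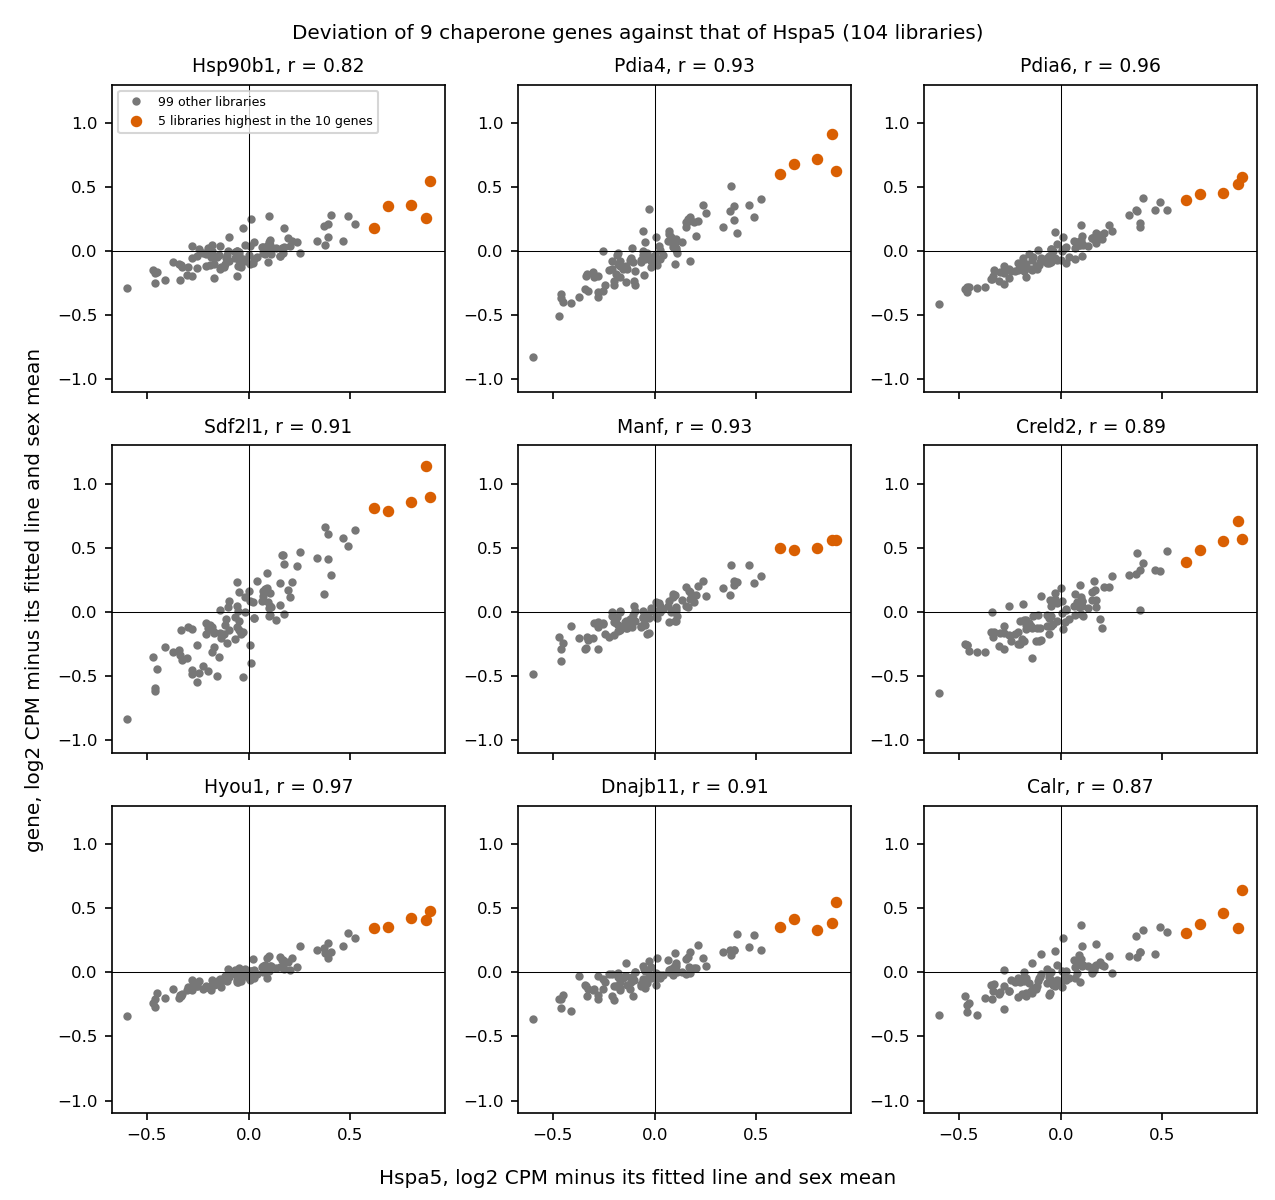
Each panel plots a gene's deviation from its fitted line and sex mean (log2 CPM, vertical) against that of Hspa5 (horizontal) for all libraries, with the 5 libraries highest in the 10 genes in orange. The points form a band in every panel, steepest for Sdf2l1 and flattest for Hsp90b1, and the orange points continue the band of the grey ones.

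The 45 pairs among the 10 genes had r between 0.61 (Hsp90b1 with Sdf2l1) and 0.97 (Hspa5 with Hyou1), with a median of 0.87. Hsp90b1 and Calr, the pair highest in Ppp1ca female replicate 36, were at 0.96 with each other. Hsp90b1 was at 0.70 with Pdia4 and with Creld2. A first principal component took 88.4% of the variance of the 10 genes (87.3% after scaling each gene), and the second took 6.22% after scaling. These correlations describe shared libraries, and genes are not independent replicates.

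**Figure D3:**
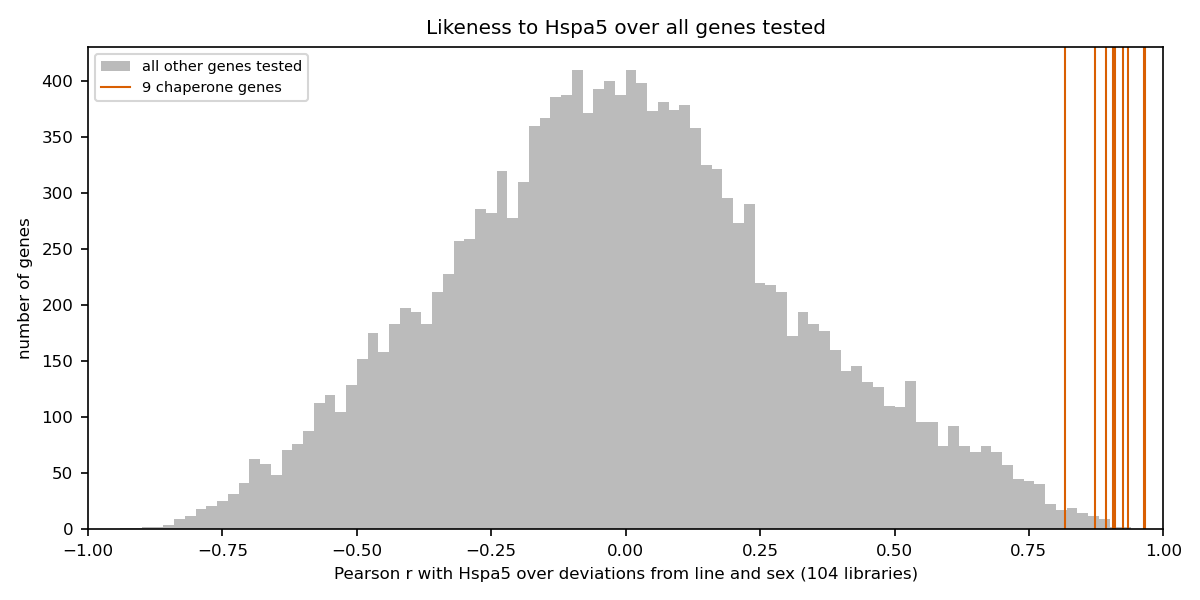
The histogram counts genes (vertical) by Pearson r with Hspa5 over deviations from line and sex over all libraries (horizontal), with the 9 other chaperone genes as orange lines. The bulk of genes lies around a median of -0.02, and the 9 lines stand between 0.82 and 0.97 at the right end.

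Over all genes tested r had a median of -0.02 and quartiles of -0.23 and 0.20. Only 0.445% of genes had an r as high as that of Hsp90b1, the lowest of the 9, and 61 of those were other genes. The 10 other genes most like Hspa5, by r over all libraries among genes that average 1 or more in log2 CPM, were Mlec, Dnajc3, Pdia3, Homer1, Chordc1, Lrrk2, Fam171a1, Enc1, Sgsm1 and Xbp1, with r from 0.89 (Xbp1) to 0.93 (Mlec). Mlec (a lectin), Dnajc3 (a BiP co-chaperone) and Pdia3 (a disulfide isomerase) reside in the endoplasmic reticulum, and Xbp1 is a transcription factor of the unfolded protein response. Homer1 is a postsynaptic scaffold, Chordc1 a cytosolic Hsp90 co-chaperone, Lrrk2 a kinase and Enc1 an actin-binding protein.

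Slopes of these genes were smaller than that of Sdf2l1, from 0.33 ± 0.01 for Mlec to 1.05 ± 0.05 for Sgsm1. Homer1 had 377 CPM in Rasgef1a female replicate 40, 341 in Rasgef1a male replicate 37, 345 in Rasgef1a female replicate 39, 388 in Ppp1ca female replicate 36 and 325 CPM in Gsg1l male replicate 14, against a median of 221 CPM. Xbp1 had 106, 99.8, 107, 90.6 and 99.6 CPM in those 5 libraries, against a median of 72.1 CPM. At the other end, Pla2g4e, a phospholipase, had an r of -0.92 and 10.1 to 18.5 CPM in the same 5 libraries, against a median of 25.6 CPM. Zfp316 (-0.90), Mfsd4 (-0.89), Cep83os (-0.89) and Zkscan2 (-0.88) were the next lowest. The ERSE was found in 1 of the 9 promoter windows that matched the 10 most alike genes (Dnajc3), and in 0 of the 4 that matched the 5 least alike.

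Other genes of the pathway followed Hspa5 in part. Among other folding factors of the compartment, 14 of 23 had a positive slope that passed the test and 4 a negative one, with a median slope of 0.10. Their steepest were Dnajc3 (0.47 ± 0.02) and Pdia3 (0.45 ± 0.02), followed by the thiol protein Erp44 (0.24 ± 0.02) and the glucosyltransferase Uggt1 (0.16 ± 0.02). Of the sensors and transcription factors, 7 of 14 were positive and 4 negative. Xbp1 was at 0.57 ± 0.03, Creb3l2 at 0.28 ± 0.04 and Atf6 at 0.20 ± 0.02, while the protease Mbtps1, which cleaves Atf6, was at -0.13 ± 0.02.

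Of the degradation machinery of the compartment, 9 of 17 genes were positive and 2 negative, with Herpud1 at 0.22 ± 0.02, the ubiquitin ligase Syvn1 at 0.18 ± 0.02, its partner Sel1l at 0.16 ± 0.02 and Erlec1 at -0.20 ± 0.02. The translocon and signal processing list had 13 of 22 positive and 1 negative (Ostc 0.30 ± 0.03, Rpn1 0.21 ± 0.02). Transport from the endoplasmic reticulum to the Golgi had 9 of 18 positive and 2 negative, with slopes of 0.15 or less among the 4 with the smallest p (Sec24c, Arf4, Mcfd2 and Tmed2). The Perk and Atf4 arm had 5 of 16 positive and 3 negative, close to the shares of all genes. In it Ddit3, a stress transcription factor, was at 0.29 ± 0.03 and Atf4 at 0.17 ± 0.04.

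**Figure D4:**
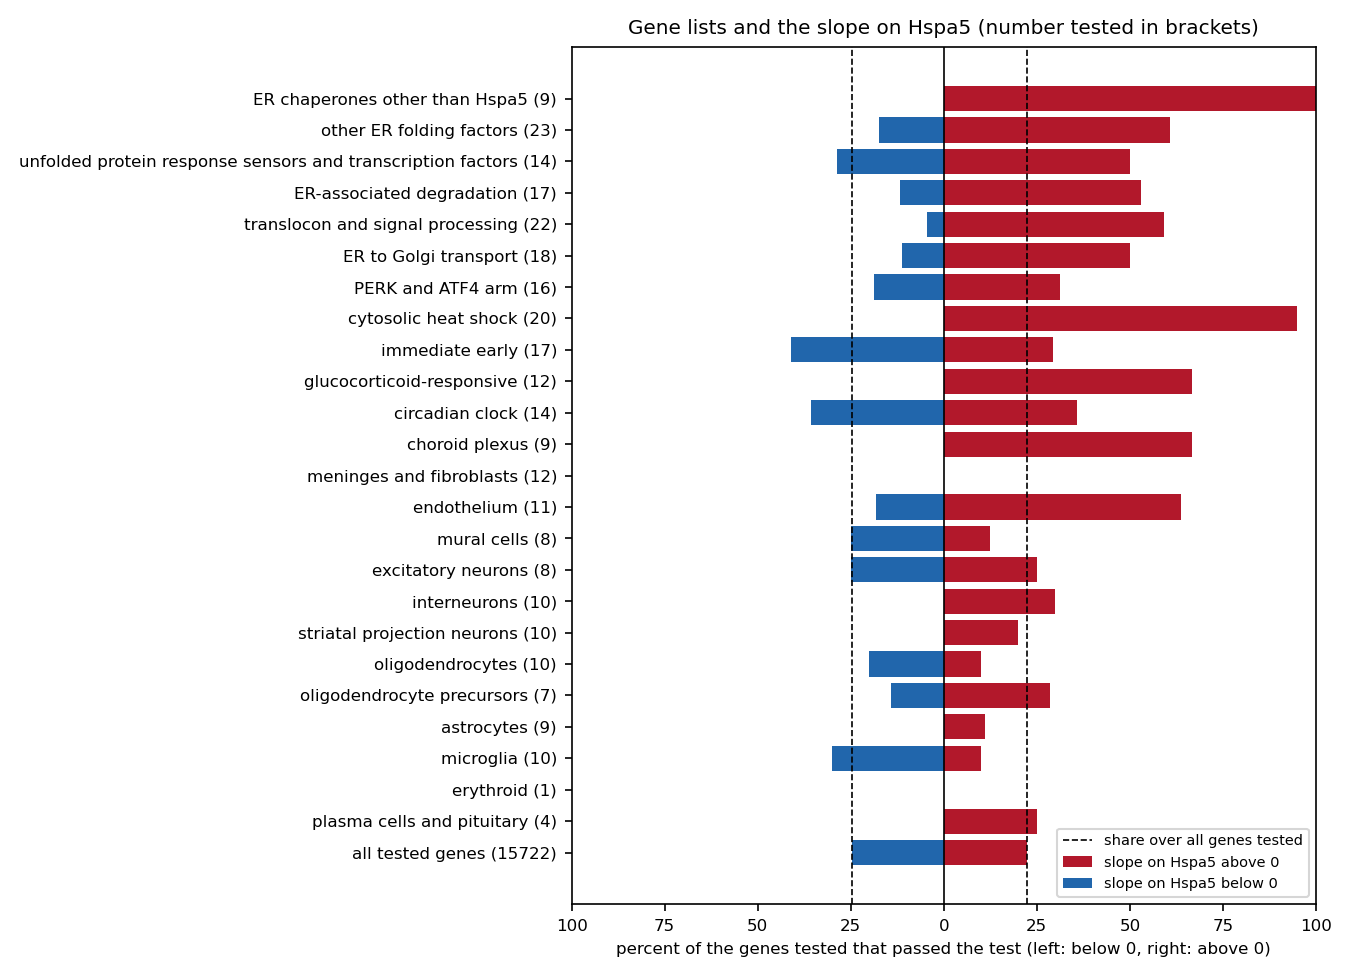
Bars give the percent of each list's tested genes (number in brackets) whose slope on Hspa5 passed edgeR's quasi-likelihood test after Benjamini-Hochberg adjustment, to the right for slopes above 0 and to the left for slopes below 0. Dashed lines mark the shares over all genes, 22.3% and 24.8%, and the chaperones other than Hspa5 and the cytosolic heat shock list reach farthest right.

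Outside the endoplasmic reticulum, the cytosolic heat shock list had 19 of 20 genes positive and 0 negative, with a median slope of 0.18. Hspb1, a small heat shock protein, was at 1.37 ± 0.10, Chordc1 at 0.43 ± 0.02, Hsph1 at 0.40 ± 0.03 and Hspa8 at 0.28 ± 0.03. Glucocorticoid-responsive genes had 8 of 12 positive and 0 negative (Cdkn1a 1.18 ± 0.10, Zbtb16 0.65 ± 0.07, Fkbp5 0.49 ± 0.06, Tsc22d3 0.40 ± 0.06). Immediate early genes were split, with 5 of 17 positive and 7 negative: Homer1 was at 0.87 ± 0.04, Nptx2 at 0.79 ± 0.09 and Bdnf at 0.73 ± 0.07, but Btg2 at -1.44 ± 0.19. Clock genes had 5 of 14 in each direction, among them Per2 at 0.67 ± 0.11, Npas2 at 0.40 ± 0.04, Clock at 0.17 ± 0.02 and Ciart at -0.73 ± 0.09.

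Markers of cell types moved less uniformly. Endothelial markers had 7 of 11 positive and 2 negative (Ly6c1 0.52 ± 0.05, Slc2a1 0.34 ± 0.05, Slco1a4 -0.33 ± 0.04), with sums of 325 to 428 CPM over libraries. Choroid plexus markers had 6 of 9 positive and 0 negative (Prlr 0.96 ± 0.14, Clic6 1.59 ± 0.31), with sums of 227 to 726 CPM. The sum of 726 CPM was in Rasgef1a male replicate 37, the library with the highest Hspa5. Their median r with Hspa5 was 0.14, and that of their sum 0.19, so the relation over mice was loose. Meningeal and fibroblast markers had 0 of 12 in either direction by edgeR's quasi-likelihood test, and 0 of 12 at an unadjusted p under 0.05. Against 22.3% positive and 24.8% negative over all genes, 2 of 8 excitatory neuron markers were positive and 2 negative, and 3 of 10 interneuron markers positive and 0 negative. Striatal projection neurons had 2 of 10 positive and 0 negative, and astrocytes 1 of 9 and 0. The summed striatal markers had an r of 0.54 with Hspa5, the highest of the cell type lists, and the summed endothelial markers one of 0.41. Oligodendrocytes had 1 of 10 positive and 2 negative, their precursors 2 of 7 and 1, microglia 1 of 10 and 3, and mural cells 1 of 8 and 2. Erythroid genes had 0 of 1 tested, and plasma cell and pituitary genes 1 of 4, Prl. With scores of choroid plexus, striatal, oligodendrocyte, endothelial and erythroid markers as covariates, all 9 chaperone genes kept a positive slope past the test, from 0.37 (Hsp90b1) to 1.17 (Sdf2l1). The erythroid score rested on 1 gene, and scores of the other cell types, among them neurons, astrocytes and microglia, were not in that fit. The part of cell type content in these slopes was not tested.

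**Figure D5:**
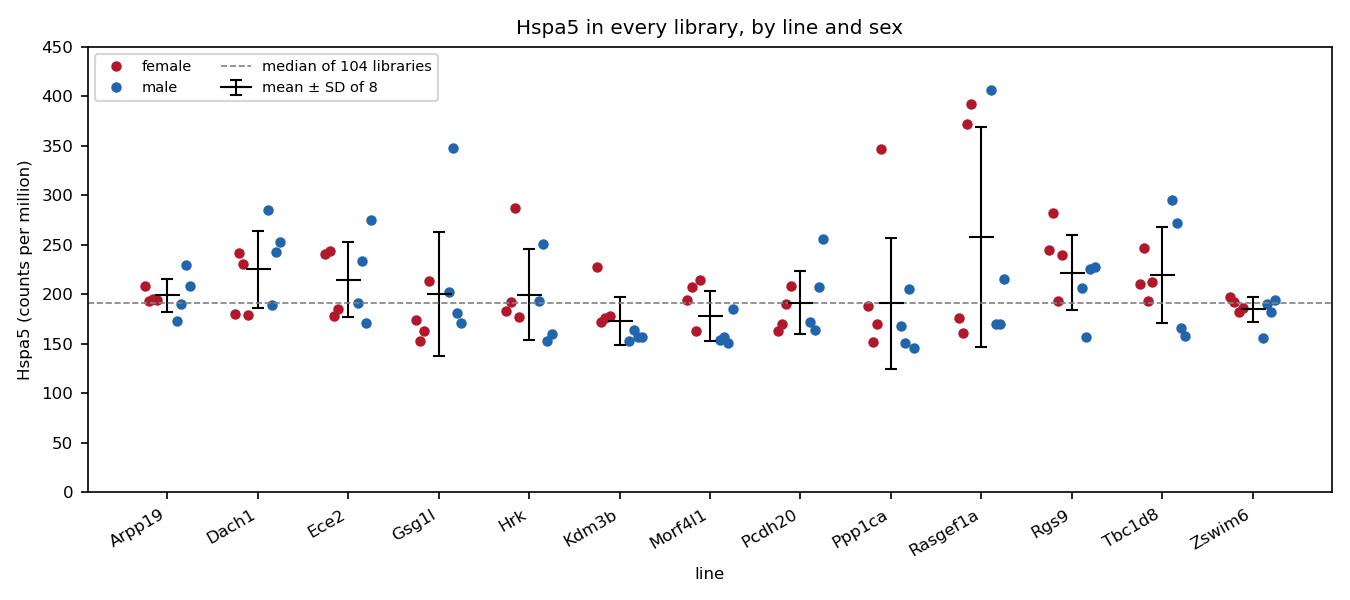
Hspa5 in CPM (vertical, from 0) is plotted for every library by line (horizontal), females in red to the left and males in blue to the right, with the mean ± SD of the 8 libraries in black and the median of all libraries as a dashed line. Rasgef1a has the highest mean and the widest spread, with 3 points above 370 CPM and 5 at 216 CPM or less.

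Few differences between lines exceeded the spread of their mice. In the F-test over the 13 lines, 1 of the 10 genes passed (Pdia4), while 9.61% of all genes tested did. Pdia4 was highest on average in Rasgef1a, at 41.7 ± 17.4 CPM, and lowest in Kdm3b, at 27.9 ± 6.59 CPM (SD, n = 8 each, adjusted p = 0.043 by edgeR's quasi-likelihood F-test, Benjamini-Hochberg adjusted). Of the other 9 genes, adjusted p ran from 0.0836 (Sdf2l1) to 0.55 (Hsp90b1) in the same test, and 7 of the 10 had an unadjusted p under 0.05. The share of all genes at that unadjusted level is not given here, and the 10 genes share their libraries. That count is therefore not a result about the chaperones. The Pdia4 call was lost without any one of Rasgef1a female replicate 39 (adjusted p = 0.15), female replicate 40 (0.159), male replicate 37 (0.154) or male replicate 40 (0.0537) in edgeR's quasi-likelihood test, and over all alternatives its adjusted p ran from 0.00602 to 0.72.

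Rasgef1a stood highest of the lines against the mean of the other 12 in each of the 10 genes but Calr. For Calr, Tbc1d8 was at 0.172 and Rasgef1a at 0.165 (log2). Hspa5 averaged 258 ± 111 CPM in Rasgef1a, with a lowest, median and highest value of 161, 196 and 406 CPM, against means between 173 ± 23.98 CPM in Kdm3b and 225 ± 38.6 CPM in Dach1 (SD, n = 8 each). Its log2 difference was 0.37 ± 0.11 (SE) for Hspa5, 0.52 ± 0.13 for Sdf2l1, 0.40 ± 0.10 for Pdia4 and 0.12 ± 0.05 for Hsp90b1. By edgeR's quasi-likelihood test after Benjamini-Hochberg adjustment 0 of the 10 genes passed (adjusted p = 0.0929 for Pdia4 to 0.409 for Hsp90b1), while 0.108% of all genes did, and 10 of 10 had an unadjusted p under 0.05. For the unadjusted count no share of all genes is given here, and the 10 genes are not independent.

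This difference rested on 3 of the 8 libraries. Hspa5 was at 176 and 161 CPM in Rasgef1a female replicates 37 and 38, and at 170, 170 and 216 CPM in male replicates 38, 39 and 40. Sdf2l1 had 7.49 and 5.33 CPM in those females and 5.69, 5.79 and 8.42 CPM in those males, against 16.6, 15.97 and 16.8 CPM in the 3 high libraries, so the 3 high libraries stood above all 5 others in both genes. Male replicate 40 lay nearest to them, with all 10 genes above their medians over all libraries and Pdia4 at 38.01 CPM, against 22.4 to 29.6 CPM in the other 4. Without the 3 high libraries all 10 differences were below 0, from -0.16 (Hspa5) to -0.04 (Hyou1), with adjusted p of 1 in edgeR's quasi-likelihood test. These 3 were chosen as the line's highest in the same 10 genes, so a fall was built in. The other lines kept their own highest libraries, so the sign below 0 is not a result about Rasgef1a. Leaving out a single one of the other 5 Rasgef1a libraries gave 7 calls among the 10 genes without female replicate 38. It gave 4 without male replicate 38, 4 without male replicate 39, 3 without female replicate 37 and 0 without male replicate 40. Leaving out a low library raises the mean of its line, and female replicate 38 was the lowest of this one in mean deviation. Libraries were left out in turn for this line only, so these counts show only how the calls depend on single libraries. Female replicates 39 and 40 of the high libraries share the first number in their names. The meaning of that number is not given, so it cannot be told whether they are as separate as other mice. The library labelled Rasgef1a male replicate 40 is one of the 2 in this line that went against their sex label.

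In each other line, 0 of 10 genes passed against the mean of the rest by edgeR's quasi-likelihood test. Kdm3b was the lowest in Hspa5 (-0.25 ± 0.12), Sdf2l1 (-0.31 ± 0.15) and Pdia4 (-0.27 ± 0.11). By the same test 6 of 10 genes in Kdm3b had an unadjusted p under 0.05, with adjusted p from 0.296 to 0.738. After adjustment 0% of all genes tested passed there, and their share at an unadjusted p under 0.05 is not given here. In Tbc1d8 Calr was at 0.17 ± 0.07 (adjusted p = 0.0743, same test, unadjusted in 1 of 10), where 12.4% of all genes passed, and it passed without the Rasgef1a line (0.19, adjusted p = 0.0274). Calr averaged 315 ± 55.1 CPM in Tbc1d8 (SD, n = 8), with a lowest, median and highest value of 243, 300.2 and 391 CPM. The 10 differences had medians between -0.15 (Kdm3b) and 0.11 (Dach1) in these 12 lines. Of all genes tested, 10.4% passed in Gsg1l, 0.165% in Dach1, 0.0445% in Rgs9, 0.0318% in Morf4l1, 0.0127% in Ece2, 0.0127% in Pcdh20 and 0.00636% in Arpp19, and 0% in Hrk, Ppp1ca and Zswim6.

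Hspa5 spread least in Zswim6, at 185 ± 12.8 CPM, and in Arpp19, at 199 ± 16.5 CPM. Apart from Rasgef1a it spread most in Ppp1ca, at 191 ± 66.3 CPM, and in Gsg1l, at 201 ± 62.6 CPM (SD, n = 8 each). In each of those a single library stood above all the rest. The medians of Ppp1ca (169 CPM) and Gsg1l (177 CPM) were below the median of all libraries, 191 CPM.

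In 0 of the 10 genes did the difference between females and males pass the test. Hspa5 was at 152, 193 and 392 CPM (lowest, median, highest) in females and at 146, 187 and 406 CPM in males. All 10 differences were above 0, from 0.02 ± 0.05 for Creld2 to 0.13 ± 0.08 for Sdf2l1 (log2, female minus male, SE, n = 52 each). By edgeR's quasi-likelihood test after Benjamini-Hochberg adjustment 0 of 10 passed (adjusted p = 0.308 to 0.818), while 8.57% of all genes passed in either direction and 4.07% were higher in females, and 0 of the 10 had an unadjusted p under 0.05. Sdf2l1 had medians of 7.09 CPM in females and 6.26 CPM in males, and Pdia4 31.7 CPM in females and 29.1 CPM in males. Since the 10 genes share their libraries, their common direction is not 10 observations. The slopes on Hspa5 were near each other in the 2 sexes, for example 1.15 in females and 1.15 in males for Sdf2l1 and 0.40 in females and 0.42 in males for Hsp90b1, and the difference between them was not tested.

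A sex difference that varied between lines was found in 0 of the 10 genes by the interaction F-test of edgeR's quasi-likelihood fit (adjusted p of 1, 0 at an unadjusted p under 0.05), and in 0.0382% of all genes. Position in library preparation was tested as well. Between plate 2 (8 libraries) and plate 1 (96) 0 of 10 genes passed by the same method, where 0.242% of all genes did, with 0 at an unadjusted p under 0.05. The largest difference was 0.12 ± 0.07 for Calr (log2, plate 2 minus plate 1). Within plate 1, 0 of 10 passed for the well's row (0.235% of genes, 0 at an unadjusted p under 0.05) and 0 of 10 for its column (2.66% of genes), where Hsp90b1 had an unadjusted p under 0.05 (adjusted p = 0.165, edgeR's quasi-likelihood F-test).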

How the data were processed

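Counts per gene in the RefSeq table are raw counts as the authors deposited them, and the RefSeq FPKM values are those the authors deposited. The submitters' processing notes list GRCm38 and mm10 as builds, with STAR (2.7.3a) for tools beside HTSeq (0.10.0), and the kit was stranded, per the labels' protocols. How FPKM was computed is not given in the sources used here. A deposited Ensembl count table served as an alternative.

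Genes were filtered with filterByExpr by line and sex, scaled by the trimmed mean of M values and fitted with edgeR 4.0.16 (R 4.3.3): quasi-likelihood tests with line and sex as terms, Benjamini-Hochberg adjustment over all genes tested and a threshold of 0.05. Log2 CPM used a prior count of 2. Alternatives used limma 3.58.1 on log2(FPKM + 0.1) and log2(FPKM + 1), and DESeq2 1.42.0. The fits were also run on simulated counts in which 200 of 15723 genes changed and genes varied independently. That setting lacks the movement shared by many genes in these data, so it does not check the tests under it. The members and lists were chosen with earlier results of these data known. All 10 members are named. Named besides are the 10 genes with the highest and the 5 with the lowest r with Hspa5, and from each list up to 4 genes by slope p and 1 each by sex and line p, not all of which are printed. Replicate numbers shared by a female and a male did not pair the libraries. Library totals of 3.39 to 33.5 M reads limit precision for low genes, and each library is labelled as a separate sample, so p-values treat the mice as independent. Within lines, 33 libraries share the first number in their names with another library. The labels do not say what it marks, and if it marks relatives the p-values are too small. Promoter sequences are RefSeq's (GRCm38.p6), matched by symbol.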

Additional observations from a re-analysis of the deposited data

Results flagged for a closer look

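Within each line of 8 libraries, the highest and lowest value of each chaperone gene was compared with the gap that Dixon's 95% critical value allows. Of 130 combinations of line and gene, 24 stood apart, 20 high and 4 low, in 6 libraries. Chance gives about 1 in 20, and the 10 genes share their libraries, so these are not 24 separate observations.

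Gsg1l male replicate 14 was the highest of its line for all 10 genes and stood apart for 8, with 348 CPM of Hspa5, 340 CPM of Hsp90b1, 56.3 CPM of Pdia4, 107 CPM of Pdia6, 45.02 CPM of Manf, 20.6 CPM of Creld2, 142 CPM of Hyou1 and 53.96 CPM of Dnajb11. The other 7 libraries of that line had at most 213 CPM of Hspa5. Ppp1ca female replicate 36 was also the highest of its line for all 10 genes and stood apart for 8. It had 347 CPM of Hspa5, 453 CPM of Hsp90b1, 116 CPM of Pdia6, 46.995 CPM of Manf, 18.1 CPM of Creld2, 157 CPM of Hyou1, 62.5 CPM of Dnajb11 and 435 CPM of Calr.

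Kdm3b female replicate 21 stood above its line for Hspa5 (228 CPM) and Manf (39.2 CPM), Hrk female replicate 19 for Creld2 (17.2 CPM) and Pcdh20 male replicate 32 for Manf (39.4 CPM). Zswim6 male replicate 49 stood below its line for Hspa5 (156 CPM), Creld2 (10.1 CPM), Hyou1 (100.01 CPM) and Dnajb11 (35.6 CPM). The 3 high libraries of the Rasgef1a line do not stand apart under this measure, since each has a close neighbour in the other two.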

How the results depend on the processing

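In each of the 30 alternatives run, 9 of 9 chaperone genes had a positive slope that passed the test of edgeR or, on FPKM, limma. They include Hsp90b1 or Calr in place of Hspa5, and leaving out the 5 highest libraries (added after seeing the data). Without those 5 libraries 17.2% of all genes had a positive slope, and 14.6% in females only, against 22.3%, while a negative slope was found for 12.97% in females only and 15.9% in males only, against 24.8%. The sex comparison kept 0 of 10 calls under its 25 alternatives, and the interaction, plate and well tests kept 0 under theirs. Under the replicate block, in place of line, 0 of 10 genes passed between the sexes (Hspa5 0.06, edgeR's adjusted p = 0.624) and 1359 genes in all against 1347. The number did not pair the libraries: of 52 pairs, 20 had a correlation over 0.1, with a median of 0.03. Creld2 turned to -0.0054 between the sexes with marker scores as covariates and to -0.0064 without the Kdm3b line.

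Over all genes the line F-test called 1511, against 1001 on plate 1 only, 901 without the line Gsg1l, 400 without Tbc1d8, 152 in females only and 456 in males only. Of the 10 chaperones it called 1, Pdia4. It called 0 without a filter on low counts, with limma on either FPKM scale, without the 3 libraries against their sex label, on plate 1 only, with marker scores as covariates, without the line Dach1, Kdm3b, Morf4l1, Rasgef1a, Rgs9, Tbc1d8 or Zswim6, in females only, in males only and without the 3 highest Rasgef1a libraries (added after seeing the data). DESeq2's likelihood ratio test called 2, Pdia4 and Sdf2l1. Leaving out each Rasgef1a library in turn gave 0 to 4 calls in the F-test, and 0 to 7 calls for each line against the others. That second count was 1 (Calr in Tbc1d8) without the line Rasgef1a, and 1 (the same gene and line) without its 3 highest libraries. Without those 3 the Rasgef1a differences turned negative: Hspa5 -0.16, Hsp90b1 -0.078, Pdia4 -0.090, Pdia6 -0.047, Sdf2l1 -0.12, Manf -0.074, Creld2 -0.064, Hyou1 -0.036, Dnajb11 -0.052 and Calr -0.10. Since those 3 were chosen as highest in the same genes, a fall was built in. The planned leave-out for lines with called genes chose no line, as 0 were called in any, so the Rasgef1a libraries were left out instead (added after seeing the data). The cause of these changes was not tested beyond what leaving libraries out shows. Depth limits Sdf2l1 most, with 14 reads in the shallowest library.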

Other observations

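Some genes around the chaperones differed between the sexes, where 0 of the 10 chaperones passed, or between the lines, where 1 did. Of 23 other folding factors of the endoplasmic reticulum, 4 were higher in females and 0 lower (edgeR's quasi-likelihood test, Benjamini-Hochberg adjusted, 8.57% of all genes called in either direction). They were Fkbp14, a prolyl isomerase, at 0.12 (log2, female minus male, adjusted p = 0.0032), Uggt1 at 0.06 (0.00298), Creld1 at 0.05 (0.00239) and Canx, the membrane-bound lectin chaperone akin to Calr, at 0.03 (0.0409). Of these, Fkbp14 and Canx fall outside the naming rule and were chosen after their values were seen. The NF-Y subunit Nfyc was at -0.05 ± 0.02 (SE, adjusted p = 0.0144, same test).

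Among lines, Asns, which makes asparagine and is a target of Atf4, had the largest F of the genes on these lists, 19.3 (adjusted p = 1.62e-17, edgeR's quasi-likelihood F-test, Benjamini-Hochberg adjusted). The degradation lectin Os9 had an F of 4.90 (0.000152), and Creld1 one of 5.14 (8.2e-05). Of the 16 genes of the Perk and Atf4 arm, 5 passed this F-test, against 1 of the 10 chaperones and 9.61% of all genes.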
